A study of Mus musculus with 2 samples.

Results

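The calpains and their inhibitor calpastatin were followed through 8 genes: Capn1, Capn2, Capn3, Capn5, Capn6, Capn7, Capns1 and Cast. They were picked by name from the 55536 Ensembl genes of the gene tables. The samples were 2 total RNA-seq libraries, biological replicates 1 and 2, of gastrocnemius, the large calf muscle. They came from 4-day-old female mice of the B6CASTF1/J cross, which are first-generation hybrids of C57BL/6J and CAST/EiJ. Both libraries form 1 group with no treatment, no other age and no other genotype, so the comparisons here are between genes, between transcripts and between the 2 animals. Both carry the same donor record, and the labels do not say whether the animals were littermates. With 2 values in a set, an exact two-sided permutation test cannot go below p = 0.333, and no p-value is given.

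Calpains are cysteine proteases of the cytosol that cut their targets at a few places when calcium rises, so that proteins are trimmed rather than destroyed. Capn1 and Capn2 encode the large subunits of the general calpains, each of which pairs with the small subunit encoded by Capns1 and is blocked by calpastatin, the product of Cast. Capn3 encodes the calpain of skeletal muscle, which is held on the giant sarcomere protein titin, and its loss causes a limb-girdle muscular dystrophy. Capn6 is a member of embryonic tissues that lacks the catalytic cysteine and is known to stabilise microtubules, while Capn5 and Capn7 are widely expressed calpains of other domain structure.

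The residue that separates Capn6 from the proteases can be read in the coding sequences. The windows below come from the GENCODE M21 transcripts, run 5′ to 3′, and cover 33 bases each. Capitals mark the codon that lines up with the codon of the catalytic cysteine.
Capn1: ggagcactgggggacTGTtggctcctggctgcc
Capn2: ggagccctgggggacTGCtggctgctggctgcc
Capn3: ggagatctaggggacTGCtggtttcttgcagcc
Capn5: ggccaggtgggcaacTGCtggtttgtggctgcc
Capn7: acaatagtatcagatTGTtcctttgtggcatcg
Capn6: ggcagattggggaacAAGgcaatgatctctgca
The marked codon reads TGT or TGC, cysteine, in 5 of the 6 genes, at codon 115 of Capn1, 105 of Capn2, 129 of Capn3, 81 of Capn5 and 290 of Capn7. In Capn6 it is AAG, lysine, at codon 81. Compared with the window of Capn2, 30 bases were the same in Capn1, 26 in Capn3, 23 in Capn5, 16 in Capn6 and 13 in Capn7. Over the whole coding sequence Capn1 and Capn2 were the closest pair, with 67.2% of aligned bases identical, and Capn3 and Capn7 the most distant, with 55.9%. Capn3 was 65.8% identical to Capn1 and 65.8% to Capn2. Capn6 shared the largest part of its translated codons with Capn5, 46.5% of those aligned, against 35.5% with Capn2.

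All 8 genes were detected, at a TPM of 1 or more in both libraries (TPM is a gene's share of all transcripts of its library, corrected for length), a level that 24.0% of all genes reached. The member with most transcripts was the one without the catalytic cysteine: Capn6 stood above 96.8% of the 13336 detected genes. The small subunit Capns1 came next, then Capn2, Cast, Capn1 and Capn3 within a narrow band, then Capn7, and Capn5 last. In bulk tissue, fewer cells of a type and less RNA per cell cannot be told apart.

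**Figure D1:**
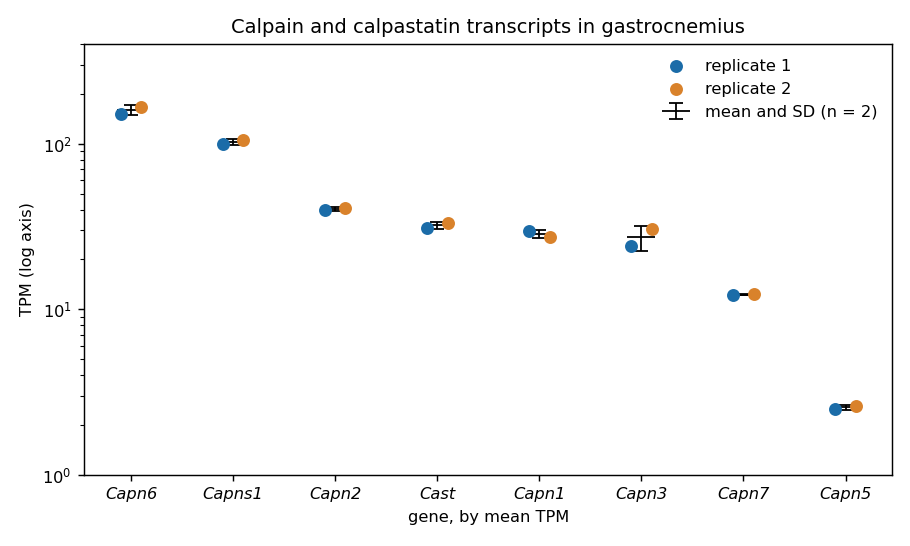
TPM (log axis) of each gene in replicate 1 and replicate 2, with the mean and SD of the 2 libraries as black bars. Capn6 lies at 152 and 167 TPM and Capn5 at 2.50 and 2.62 TPM, and the 2 libraries of Capn1 and Capn3 overlap in range.

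Capn3, the muscle calpain, read 24.0 TPM in replicate 1 and 30.6 TPM in replicate 2 (27.3 ± 4.67, SD, n = 2), from 1976 and 2866 expected counts. It stood above 80.8% of detected genes. The level in replicate 2 was the higher, and the spread between libraries was the widest of the 8 members relative to the mean. Capn1, the large subunit of the general calpain that needs less calcium, read 29.6 and 27.4 TPM (28.5 ± 1.59), so its order with Capn3 turned between the libraries, with Capn1 over Capn3 at 1.23 and 0.894. These were the only neighbours in the order whose libraries overlapped, in these tables and in the other quantification. Capn2, the large subunit of the one that needs more, read 39.7 and 41.0 TPM (40.4 ± 0.912), and its ratio to Capn1 was 1.34 and 1.498.

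Capns1, the regulatory small subunit, read 99.1 and 105 TPM (102 ± 4.13) and stood above 95.1% of detected genes. In gene TPM, Capns1 over the sum of Capn1 and Capn2 was 1.43 and 1.54 (1.48 ± 0.0746). Whether small-subunit RNA exceeded that of its partners depended on what was counted. In expected counts, which are not corrected for length, the same ratio was 0.634, below 1. Over coding transcripts only, an alternative chosen after the data were seen, it was 0.543 and 0.632 in the main tables, below 1, and 1.57 and 1.54 in the other quantification. The RNA of the inhibitor Cast read 31.0 and 33.1 TPM (32.1 ± 1.51). Cast over the sum of Capn1 and Capn2 was 0.447 and 0.484 (0.466 ± 0.0265). In both libraries the inhibitor thus had less RNA than Capn1 and Capn2 together. The other quantification gave 0.575. Taken singly, Cast was above Capn1 and below Capn2 in both libraries. Each calpastatin molecule carries several inhibitory domains, and RNA ratios are not ratios of protein.

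Capn6 read 152 and 167 TPM (159 ± 11.1), from 14739 and 18439 expected counts, which was 1.53 and 1.59 times the level of Capns1. It exceeded Capn2 by 3.82-fold and 4.08-fold, and Capn1 by 5.12-fold and 6.11-fold. Against Capn3 it was 6.32 and 5.47 times higher, so the ratio of the muscle calpain to the fetal member was 0.158 and 0.183 (0.171 ± 0.0174). In both libraries the embryonic member exceeded the muscle member by far more than the libraries differed from each other. Capn7, an atypical calpain that binds the membrane-remodelling ESCRT proteins, read 12.1 and 12.3 TPM (12.2 ± 0.120). Capn5, which ends in a C2 domain and is mutated in an inherited eye inflammation, read 2.50 and 2.62 TPM (2.56 ± 0.0849), and Capn6 exceeded it by 60.6-fold and 63.9-fold.

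As a share of the summed TPM of the 6 genes built like a catalytic subunit, Capn6 held 58.4% and 59.5% (59.0 ± 0.776). Capn2 held 15.3% and 14.6%, Capn1 11.4% and 9.73%, and Capn3 9.24% and 10.9% (10.1 ± 1.16). Capn7 held 4.68% and 4.38%, and Capn5 0.963% and 0.932%. The muscle member therefore made up about as much of the family RNA as Capn1, and the general pair together made up more than Capn3: Capn3 over the sum of Capn1 and Capn2 was 0.346 and 0.448 (0.397 ± 0.0718). The other quantification set every member higher, for example Capn6 at 254 and 273 TPM and Capn3 at 41.2 and 49.6 TPM. Its shares were close to those above, with Capn6 at 58.7% and Capn3 at 10.1%.

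**Figure D2:**
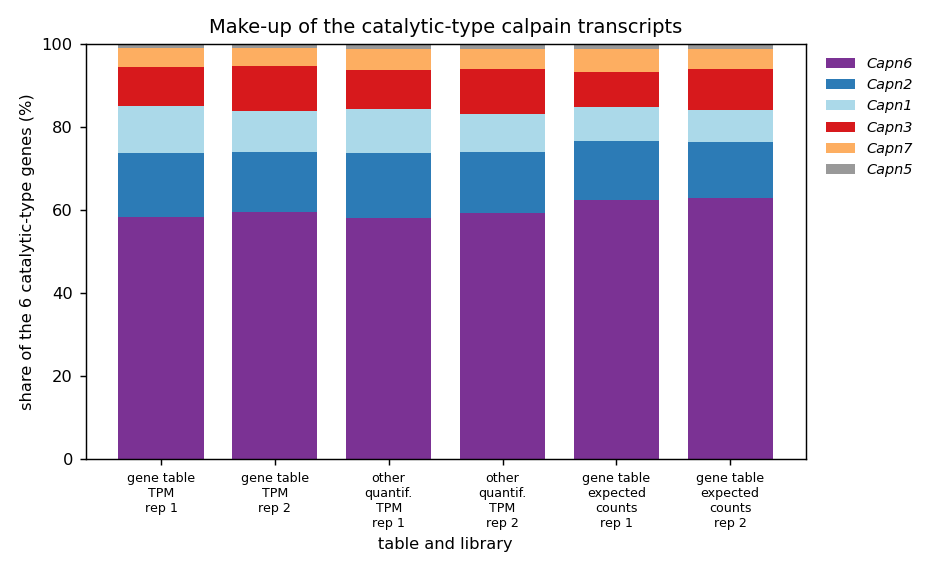
Share (%) of the summed level of Capn1, Capn2, Capn3, Capn5, Capn6 and Capn7 held by each gene, for each library in gene-table TPM, in TPM of the other quantification and in expected counts. Capn6 fills the largest block in all 6 bars, and its mean share is 59.0%, 58.7% and 62.6% in the 3 measures.

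The Capn3 RNA came mainly from the muscle start. The gene (mm10, chr2:120456019-120504913, plus strand) has 13 annotated transcripts, which begin at an upstream start, at the muscle start, at a downstream start, or inside the gene. Capn3-202, the full muscle form of 24 exons and 821 codons, took 90.4% and 91.5% of the Capn3 TPM (91.0 ± 0.789), with 1868 and 2735 expected counts. The 5 transcripts of the downstream start, which replace the first muscle exon, together took 4.96% and 3.86% (4.41 ± 0.778). The upstream start, with Capn3-207 and Capn3-211, took 0% and 0.196%. Transcripts that begin inside the gene took 4.63% and 4.41%. Muscle-start and downstream-start shares did not overlap in either library or either quantification, with means of 86.8% and 5.91% in the other quantification.

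Exons 6, 15 and 16 are the known alternative exons of Capn3, and encode parts of the insertion sequences that set this calpain apart from Capn1 and Capn2. Their sequences are shown, from the plus strand and 5′ to 3′, because the muscle-start transcripts differ by them. Exon 6 (mm10, chr2:120486333-120486476) spans 144 bases and 48 codons, exon 15 (chr2:120498968-120498985) 18 bases and 6 codons, and exon 16 (chr2:120501211-120501324) 114 bases and 38 codons, so each leaves the reading frame in step.
Exon 6: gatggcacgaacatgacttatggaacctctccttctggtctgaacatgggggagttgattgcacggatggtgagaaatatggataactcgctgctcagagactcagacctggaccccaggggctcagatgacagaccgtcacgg
Exon 15: aaaaagaaaaaaaacaag
Exon 16: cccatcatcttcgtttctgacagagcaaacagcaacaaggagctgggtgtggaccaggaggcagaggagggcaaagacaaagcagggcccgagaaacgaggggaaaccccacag
Exon 15 is almost free of G and C, which made up 16.7% of its bases, against 53.5% in exon 6 and 57.0% in exon 16. Transcripts that hold exon 6 took 94.0% and 94.6% of the Capn3 TPM. Exon 15 is annotated in Capn3-202 alone and so followed its share. Whole exon 16 is held by Capn3-202 and Capn3-208, with 90.4% and 92.7%. Capn3-206 shares the muscle start and lacks all 3 exons, and it was assigned 0 counts in both libraries by both quantifications. The annotation holds no muscle-start form with 1 or 2 of these exons, so such mixed forms could not be counted here.

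Among the rest, Capn3-210, a fragment of 5 exons at the 3′ end, was assigned 4.63% and 3.27%, from 17.7 and 18.2 counts, and in the other quantification 8.31% and 2.13%. Capn3-209, which runs from the downstream start without an annotated coding region, took 3.25% and 2.58%. Capn3-203 took 1.42% and 0.327%. Capn3-205 took 0.292% and 0.490%, Capn3-201 0% and 0.458%, and Capn3-208 0% and 1.14%. Capn3-204, Capn3-206, Capn3-211, Capn3-212 and Capn3-213 were at 0 in both libraries. None of these minor transcripts reached 100 expected counts in either library, so their order is not firm.

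**Figure D3:**
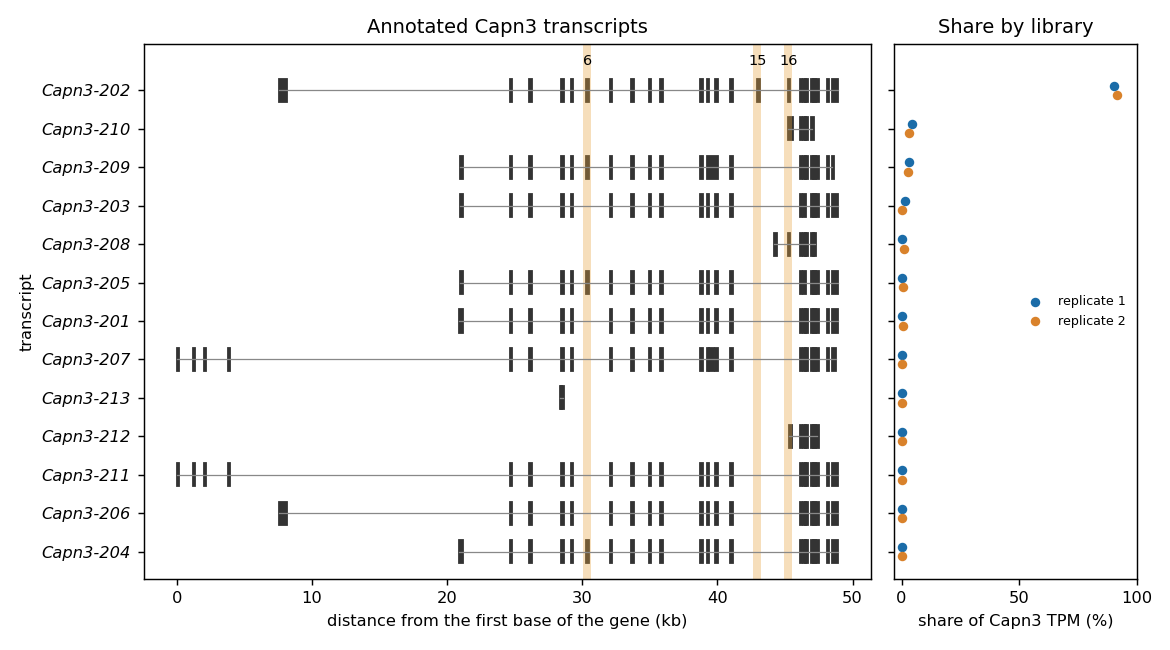
Left, exons (boxes, the shortest drawn wider than to scale) of the 13 annotated Capn3 transcripts by distance in kb from the first base of the gene, with exons 6, 15 and 16 shaded. Right, each transcript's share (%) of the Capn3 TPM in replicates 1 and 2, where Capn3-202 holds 90.4% and 91.5% and each other transcript under 5%.

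The sequence around the 2 Capn3 starts is shown because the RNA divided so unevenly between them. The windows are from RefSeq (GRCm38.p6, plus strand), 250 bases before to 50 bases after each start. Capitals mark E-boxes (CANNTG, the motif that myogenic bHLH factors such as MyoD bind) and the 10-base consensus of MEF2, a muscle transcription factor. Both motifs read the same on both strands and no 2 matches overlap.
Capn3 muscle start, chr2:120463343-120463642: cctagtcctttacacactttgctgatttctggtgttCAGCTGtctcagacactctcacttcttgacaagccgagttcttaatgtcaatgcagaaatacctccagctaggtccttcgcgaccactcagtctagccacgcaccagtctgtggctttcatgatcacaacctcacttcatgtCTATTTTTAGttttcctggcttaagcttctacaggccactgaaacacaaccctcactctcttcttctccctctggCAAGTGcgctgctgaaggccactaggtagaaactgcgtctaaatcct
Capn3 downstream start, chr2:120476659-120476958: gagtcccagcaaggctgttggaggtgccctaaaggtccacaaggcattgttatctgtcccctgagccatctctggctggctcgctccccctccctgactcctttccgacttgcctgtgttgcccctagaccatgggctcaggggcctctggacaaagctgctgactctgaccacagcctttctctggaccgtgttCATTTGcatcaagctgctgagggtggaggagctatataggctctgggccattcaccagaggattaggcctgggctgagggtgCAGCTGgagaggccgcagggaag
The muscle window holds 2 E-boxes, CAGCTG beginning at -214 and CAAGTG at 4 from the start, and the MEF2 match CTATTTTTAG at -72. The downstream window holds CATTTG at -55 and CAGCTG at 28, and no MEF2 match. Of 32851 RefSeq windows of this length, 72.3% held at least 1 E-box and 3.19% a MEF2 match. The Capn6 window held 3 E-boxes, as 17.6% of windows did at that number or more, and the windows of Capn1, Capn2, Capn7, Capns1 and Cast held 0 to 2. None of the windows of members other than Capn3 held a MEF2 match. CpG pairs numbered 6 and 4 in the Capn3 windows and 5 in that of Capn6, with a median of 7 over all windows. They numbered 27 in Capn2, 25 in Capn7, 14 and 15 in Capn1, 14 in Capns1, and between 2 and 11 in the 4 Cast windows. A match describes these letters and does not show binding.

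The other members differed in how far their RNA was spread over annotated transcripts. Capn6 was nearly all Capn6-201, with 98.9% and 99.3%, and Capn2 mostly Capn2-201, with 92.0% and 94.5%. Capn5 was mostly Capn5-201, with 100% and 95.0%, though the other quantification gave it 76.8% and 71.2%. Capn7-201, the only coding transcript of Capn7, took 79.7% and 85.4%, and Capn7-202, annotated for nonsense-mediated decay, 17.0% and 12.2%. Those 4 genes were led by the same transcript in both quantifications.

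Cast was the most divided gene. Of its 13 annotated transcripts, 6 reached 5% or more in the main tables. Cast-213 took 27.1% and 23.1%, the highest share in replicate 1 and in the mean. Cast-201 took 13.0% in replicate 1 and 26.3% in replicate 2, where it was the highest, from 318 and 778 counts, and was likewise higher in replicate 2 in the other quantification, with 11.9% and 19.8%. Cast-211 took 15.0% and 11.9%, Cast-207 13.5% and 10.7%, Cast-212 12.3% and 7.82%, and Cast-208 11.8% and 10.3%. The other quantification put Cast-207 and Cast-208 at 0 in both libraries. It gave Cast-202 12.5% and 13.6%, and Cast-203, annotated as a retained intron, 5.66% and 4.55%. The coding forms of Cast range widely, from 431 codons in Cast-212 to 788 in Cast-211. Together the coding transcripts took 94.6% and 94.2% in the main tables.

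In Capn1, Capn1-201 led with 66.4% and 78.7%, while the other quantification led with Capn1-202 at 46.2% and 71.7%. Both encode 713 codons. Of the shorter forms, Capn1-206 took 11.4% and 9.35%, Capn1-203 10.6% and 4.60%, and Capn1-205 5.13% and 1.32%. Capn1-202 took 6.45% and 6.03%. The other quantification gave Capn1-205 30.1% and 25.3%, Capn1-206 3.17% and 0%, and Capn1-203 0% in both libraries. The mean effective length the authors used for Capn1 was 2357 bases in replicate 1 and 2601 in replicate 2, and the gene's TPM was lower in replicate 2, while its log2 ratio of scaled counts was 0.03 with trimmed-mean scaling and -0.11 with spike-in scaling.

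For Capns1 the 2 quantifications differed in the leading transcript, and with it in the annotated class. In the main tables Capns1-208, annotated as a retained intron, took 60.8% and 57.6%, and the coding form Capns1-203 35.8% and 38.9%. In the other quantification Capns1-208 took 0% and 7.29%, and Capns1-203 69.8% and 61.3%. The 2 models share 1162 bases. Capns1-208 has 79 bases of its own, 72 of them in an intron of Capns1-203, and lacks 267 bases that Capns1-203 has. All retained-intron models of Capns1 together held 60.9 ± 2.23% in the main tables and 5.26% in the other, so the share of Capns1 RNA that is coding was not settled by these files, while its gene level was high in both.

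**Figure D4:**
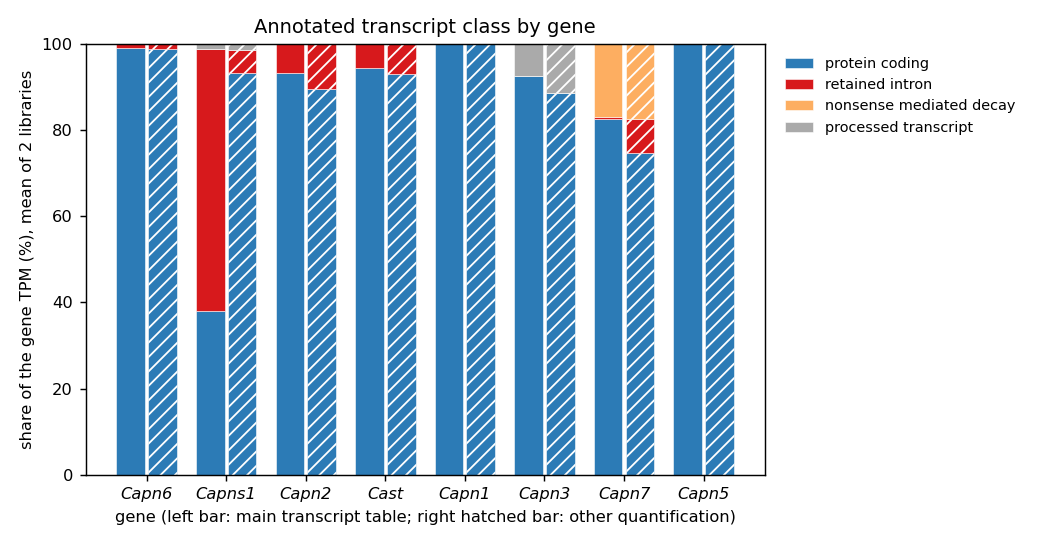
Share (%) of each gene's TPM by annotated transcript class, as the mean of the 2 libraries, in the main transcript tables (left bar) and the other quantification (right, hatched bar). Coding transcripts fill most of each bar except the main bar of Capns1, where retained-intron models hold 60.9% against 5.26% in the other quantification.

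The libraries held 30961087 and 36246031 expected counts. Muscle fibre markers were detected in 8 of 8 cases, and summed to 37994 and 44710 TPM. Markers of several other tissues also differed between the libraries. Red cell markers summed to 1324 and 254 TPM, tendon markers to 240 and 120 TPM, and neutrophil markers to 67.7 and 12.8 TPM. Cartilage and bone markers summed to 38.6 and 10.9 TPM, with 2 of 6 detected in both libraries. Of these markers, Ibsp read 8.54 and 0 TPM, Mmp13 2.97 and 0 TPM, and Bglap 5.21 and 0.54 TPM. Liver markers summed to 9.74 and 98.6 TPM. Fibroblast markers summed to 7146 and 5847 TPM. Endothelium markers were closer, at 149 and 159 TPM, as were macrophage markers, at 68.8 and 68.0 TPM.

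The members were compared between the animals by log2 ratio of scaled counts, replicate 2 over replicate 1. Of the 12257 genes whose counts averaged 100 or more, 2.45% were over 1.5-fold apart, as were 0 of 8 members, a count that with so low a background share says nothing particular of the members. The 95% counting interval excluded 0 for 4 of 8, Capn2, Capn3, Capn6 and Capns1, against 38.6% of all genes. With 1 library from each animal this interval compares the libraries, not conditions. Ratios above 0 numbered 7 of 8 under the trimmed-mean scaling, where 55.4% of all genes were above 0 and their median was 0.02. They numbered 5 of 8 with library size alone, where the median of all genes was -0.03. With the libraries scaled by the spike-ins they numbered 2 of 8, Capn3 and Capn6, and that median was -0.12. The share of all genes above 0 was not counted under the last 2 settings. The counts given for them here and below therefore have no background share.

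Capn3 had the widest difference of the members, 0.36 (counting interval 0.28 to 0.44), wider than that of 91.9% of genes. It was 0.22 with spike-in scaling. The 8 fibre markers were all higher in replicate 2 under the trimmed-mean scaling, by 0.10 to 0.34 with a median of 0.24, and with spike-in scaling 7 of 8 were higher with a median of 0.10. The Capn3 value was above each of theirs, but its counting interval included those of Ckm, 0.34, and Actn3, 0.32. The 6 myoblast and satellite cell markers were also all higher in replicate 2, by 0.14 to 0.38 with a median of 0.20, or 0.06 with spike-in scaling, and Myod1, at 0.38, was above Capn3. The part of the marker shifts in the Capn3 difference was not tested. Capn6 differed by 0.15 (0.11 to 0.18), and by 0.00 with spike-in scaling. Capns1 differed by 0.10, Cast by 0.08, Capn2 by 0.07, Capn5 by 0.04, Capn1 by 0.03 and Capn7 by -0.02. The members' median was 0.07 and that of all genes 0.02.

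**Figure D5:**
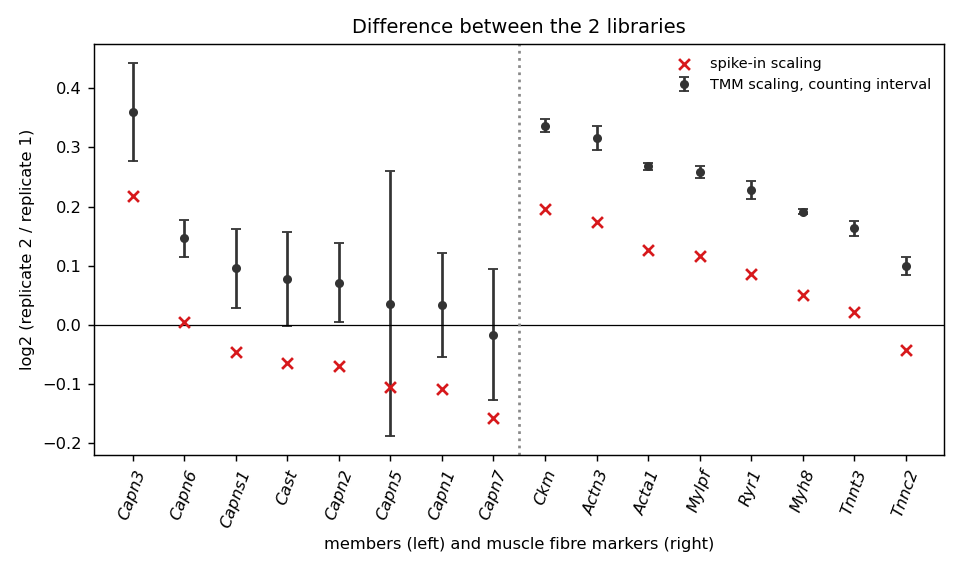
Log2 ratio of replicate 2 over replicate 1 for the 8 members (left) and 8 muscle fibre markers (right), with trimmed-mean (TMM) scaling as points with 95% counting intervals and spike-in scaling as crosses. Capn3 is highest at 0.36 and 0.22, and most other members fall from above to below 0 when the scaling changes.

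Most other calpain genes were low. Of 9 listed, 8 were matched in the annotation (Capn14 was not). Of these 8, 2 were detected, near the 24.0% share of all genes, so the count is not particular to them. Capn15, a relative of the fly small-optic-lobes gene, read 6.00 and 5.48 TPM, and Capn10, a calpain without the calcium-binding EF hands, 4.26 and 5.32 TPM. Capn11, a testis calpain, read 0.47 and 0.57 TPM with 33 and 45 counts, and 0.894 and 1.15 TPM in the other quantification. Capn12, Capn13 and Capns2 had 5 counts or fewer in each library. The stomach calpains Capn8 and Capn9 had 0 counts in replicate 1, which allows up to 0.0969 CPM (counts scaled by the library total), and 1 and 2 counts in replicate 2. With these genes in the sum, the Capn3 share was 9.66% and the Capn6 share 56.6%.

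RNA was also measured for 12 genes whose proteins calpains are known to bind or cut. All 12 genes on the list of partners and substrates were detected, against 24.0% of all genes, with a median of 169 TPM. Ttn, the titin scaffold that holds Capn3, read 1707 and 1903 TPM, 71.2 and 62.2 times Capn3. Aldoa, the glycolytic aldolase, read 1798 and 2172 TPM. Des and Vim, the intermediate filament proteins desmin and vimentin, read 606 and 717 TPM, and 511 and 556 TPM. These 4 stood above every member of the calpain family in both libraries.

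Ryr1, the calcium release channel of the sarcoplasmic reticulum, read 168 and 186 TPM, and Flnc, the muscle filamin, 162 and 201 TPM. Ahnak, a large scaffold protein, read 161 and 160 TPM, and Flna, the general filamin, 105 and 102 TPM. Sptan1, a spectrin and a classical calpain substrate, read 81.0 and 84.1 TPM, Vcl, vinculin, 52.6 and 54.0 TPM, and Tln1, talin, 51.0 and 52.9 TPM. Dysf, the membrane-repair protein dysferlin, read 41.6 and 50.3 TPM, 1.73 and 1.64 times Capn3. In replicate 2, 11 of the 12 were higher, against 55.4% of genes averaging 100 counts or more, and Flna was at -0.00. The median log2 ratio of the 12 was 0.16. With spike-in scaling 6 were higher, Ttn, Dysf, Flnc, Aldoa, Ryr1 and Des, and the median was 0.02. Ryr1 is also one of the 8 fibre markers, so the counts of higher genes in the 2 lists are not separate.

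The members lie on 7 chromosomes (mm10): Capn1 at chr19:5988545-6015897, Capn2 at chr1:182467260-182517608, Capn5 at chr7:98121559-98178274, Capn6 at chrX:143802231-143827414, Capn7 at chr14:31336638-31371986, Capns1 at chr7:30186936-30198811 and Cast at chr13:74692368-74808810. Capn3 and Capn7 are on the plus strand and the others on the minus strand. Capn2 and Capn8 are neighbours, 47.4 kb apart on opposite strands, and differed sharply, with 3362 and 3994 counts for Capn2 against 0 and 1 for Capn8. Cox7a1, the muscle form of a respiratory chain subunit, lies 857 bases from Capns1 and read 90.9 and 106 TPM, close to Capns1. Zfp106, a zinc finger gene 1.91 kb beyond Capn3, read 60.0 and 66.2 TPM. Beside Capn6, the neuronal genes Dcx and Pak3 were low, at 6.19 and 6.87 TPM and 2.21 and 3.92 TPM.

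Overlaps with other genes touch a few members. The strand setting of the counting is unknown here, so reads in such overlaps are uncertain. Ganc, an alpha-glucosidase gene on the same strand, overlaps 5682 bases at the 5′ end of Capn3, before the muscle start, and read 7.87 and 7.67 TPM. Sh3bp5 overlaps 12107 bases of Capn7 on the opposite strand and, at 33.7 and 36.3 TPM, was higher than Capn7. Erap1 overlaps 834 bases of Cast on the opposite strand and read 8.33 and 6.07 TPM. The other overlapping genes, Gm10814, Gm37885, Gm37069, Omp, Gm16938, Gm47298, Gm26810 and the pseudogene Gm6296, were each under 1 TPM in both libraries.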

How the data were processed

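The 2 libraries of 1 group were used as labelled; each began from 300 ng of total RNA depleted of ribosomal RNA, per the labels. The authors deposited, for each library, gene and transcript tables with expected counts (estimated, rounded here for ratios) and TPM, and separate transcript tables with estimated counts and TPM, summed here per gene and called the other quantification. Per the submitters' processing notes the build was mm10 with GENCODE M21, a C57BL/6J reference onto which reads of both parental alleles were counted together. For the aligner, the quantifiers and the strand setting, no name is stated in these sources.

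Symbols were joined by gene ID. Levels were compared in TPM, which is per length. Ratios between libraries came from edgeR 4.0.16 (R 4.3.3) with trimmed-mean scaling over genes averaging 10 counts or more and a prior count of 2, tested on simulated data. Intervals (exact, 95%) and the floor of 3 counts cover counting error only, since reads are not independent molecules. Coding sequences were aligned pairwise with Biopython 1.88, as bases for the base identities and as translated for the codon identities and the marked codons. As alternatives, scaling used size factors of DESeq2 1.42.0, library sizes or the 96 ERCC spike-ins; a prior count of 0.5, other detection levels, expected counts, the other quantification, and each library alone were also tried. The gene list, the transcripts at 5% or more of their gene, overlapping genes and nearest coding neighbours were named by rule. The members and lists were chosen with earlier results of these data known. Promoter windows matched 7 of the 8 members; Capn5 had no entry.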

Additional observations from a re-analysis of the deposited data

How the results depend on the processing

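The ratio of Capns1 to Capn1 plus Capn2 crossed 1, and the Capns1 retained-intron share went from a majority to a minority. The log2 ratios of 5 members turned negative with spike-in scaling, and those of Capn1 and Capn5 also with library size alone, at -0.02 and -0.01. Over coding transcripts only, Capns1 over Capn1 plus Capn2 was 0.587. With expected counts in place of TPM, Capn3 over Capn6 was 0.145, Capns1 over Capn1 plus Capn2 0.634, the Capn6 share 62.6%, the Capn3-202 share 95.0% and the Capns1 retained-intron share 56.9%. With the other quantification, Cast over Capn1 plus Capn2 was 0.575, Capns1 over the pair 1.56, the Capn3-202 share 86.8% and the Capns1 retained-intron share 5.26%. At 5 TPM, 1 other calpain gene was detected. The causes were not tested, except that counts are not divided by length and that the coding ratio leaves out retained introns. The alternatives for the Capn6 and retained-intron shares and that of coding transcripts were added after the data were seen.

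With each library alone, the Capn3 share ranged from 9.24% to 10.9%, Capn3 over Capn1 plus Capn2 from 0.346 to 0.448, Capn3 over Capn6 from 0.158 to 0.183, Cast over the pair from 0.447 to 0.484, Capns1 over the pair from 1.43 to 1.54, the Capn6 share from 58.4% to 59.5% and the Capn3-202 share from 90.4% to 91.5%. Of single members' levels and ratios under alternatives, 24 moved by more than the spread or interval and 48 did not. The 48 include the levels of each library alone, which by construction cannot lie further from the mean of 2 libraries than their SD. Those settings are therefore no test of stability. With the other quantification the level of every member moved. With TPM rescaled to leave out spike-ins and mitochondrial genes, every level but that of Capn3 moved. No member was over 1.5-fold apart under any scaling. No paired analysis was possible because there was 1 group. With 2 libraries an SD is imprecise, and transcript shares hold only for the annotated models.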
